A study of Mus musculus with 8 samples.

Results

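The semaphorin system was followed through 10 genes in mouse CD8+ T cells that had been stimulated with or without RGX-104, a synthetic agonist of the liver X receptors (LXR), which are sterol-sensing nuclear receptors. They were 6 semaphorins of classes 4 and 7 (Sema4a, Sema4b, Sema4c, Sema4d, Sema4f and Sema7a), 3 plexin receptors (Plxnb2, Plxnd1 and Plxnc1) and the neuropilin Nrp1. They are 10 of the 41730 genes in the deposited table, and 9 of them passed the filter on low counts that left 13290 genes for the fit. They were chosen by family with the control and RGX-104 values of these libraries already known. Their changes with RGX-104 are therefore given as a description, without a test.

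The T cells were OT-I cells, whose transgenic antigen receptor recognises the ovalbumin-derived peptide SIINFEKL, and they were purified by flow cytometry after culture. In both groups the peptide was presented by dendritic cells grown from bone marrow that lacked LXR. The 4 control samples were treated with the solvent DMSO and the other 4 with 2 uM RGX-104, and the labels give the T cells no LXR allele. The labels name no separate animals or cultures within a group, so errors and p-values cover only sample-to-sample spread, part or all of which may be technical. The control libraries carry the numbers of their labels, whereas the RGX-104 libraries are numbered by column, since their columns show the group but not the sample.

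Semaphorins are secreted or membrane-bound signals first known from axon guidance, and several of them act between immune cells. Their main receptors are the plexins, whose cytoplasmic part acts on small GTPases and so on adhesion and cell shape. Neuropilins bind semaphorins beside plexins and signal little alone. In T cells the class 4 and 7 proteins are anchored in the membrane, Sema7A by a lipid anchor, and some are also shed from it.

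The bases upstream of Sema4a are shown because Sema4a had the largest change of the 10 genes. Sema4a lies on the minus strand of chromosome 3 from 88435959 to 88461182 (RefSeq, GRCm38.p6). The stretch below covers the 250 bases before its outermost start, chr3:88461183-88461432, read 5′ to 3′ on the minus strand. Capitals mark the 16 bases closest to a DR4 element, the paired half-site that LXR and its partner RXR are known to bind, searched as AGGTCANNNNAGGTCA on both strands.
Sema4a upstream: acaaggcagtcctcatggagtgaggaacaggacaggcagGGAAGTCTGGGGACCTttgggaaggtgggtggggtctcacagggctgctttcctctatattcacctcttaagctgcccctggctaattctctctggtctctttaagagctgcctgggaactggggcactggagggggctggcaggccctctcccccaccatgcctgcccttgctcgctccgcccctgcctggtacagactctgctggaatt

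All 10 genes had RefSeq start-site windows of 300 bases (250 before and 50 after a start), 18 in total, some of them overlapping. The half-site AGGTCA, on either strand, was present in 5 of these 18 windows, in Sema4b, Sema4d, Plxnb2, Plxnd1 and Nrp1. It was found in 16.3% of all 32851 RefSeq windows. It was in none of the 4 Sema4a windows, which says only that these letters are not in them. The full element was present in 5 of the 32851 windows and in none of the 18. The closest stretch is given below for 6 of the genes, each oriented to the element, with the matching bases in capitals.
Sema4a: AGGTCcccagActTCc
Plxnd1: AGGTCActggtGGcCg
Sema4c: AGGTgAgtgcAGtTCg
Plxnc1: AGGgCtggagAGGTtg
Sema7a: cccTCAtgacAGaTCA
Nrp1: AGagCAcagcAGGgtA
The Sema4a, Plxnc1, Sema7a and Nrp1 stretches matched at 8 of the 12 defined positions, and 76.9% of all windows had at least as many matches. The Plxnd1 and Sema4c stretches matched at 9 positions, reached by 21.9% of all windows. The Sema4a stretch comes from its outermost window and the Sema4c stretch from the window with more matches. A match describes letters only and shows no binding.

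Library totals ranged from 30642316 to 37714355 counts, so that 1 count was worth 0.0270 to 0.0324 CPM, the unit of counts scaled to the library total. Levels are in CPM with totals scaled by the trimmed mean of M values, and errors are SD over 4 libraries. Between libraries of a group chi-square per degree of freedom ran from 1.36 (RGX-104 replicates 2 and 3) to 6.77, and no pair agreed within counting noise. The LXR target Abca1, a cholesterol exporter, had a control mean of 1.72 ± 0.295 CPM and an RGX-104 mean of 125 ± 6.21 CPM. Of 8 T cell markers 7 passed the filter, and the other, Cd2, which has a second row in the table, had 0 to 6 counts. Lck also has a second row, and how reads matching both rows were counted is not given in the sources. Cd8a was at 877 ± 18.1 and 809 ± 6.26 CPM and Cd3e at 325 ± 10.6 and 295 ± 11.2 CPM, whereas Cd4 had 3 to 14 counts per library. Of the 7 tested, 4 had an edgeR adjusted p under 0.05, as had 8.95% of all tested genes. Of these, Cd8a, Cd8b1 and Cd3e fell and Lck rose with RGX-104. Thy1 was at 855 ± 35.9 and 908 ± 23.05 CPM (edgeR adjusted p = 0.0658). Cd3d and Cd3g hardly changed, with log2 fold changes of -0.01 and -0.02. The summed markers were at 3016 to 3125 CPM in the controls and 2952 to 3007 CPM in RGX-104 libraries. What part this has in the results was not tested. In bulk RNA, fewer cells of a type and less RNA per cell cannot be told apart.

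**Figure D1:**
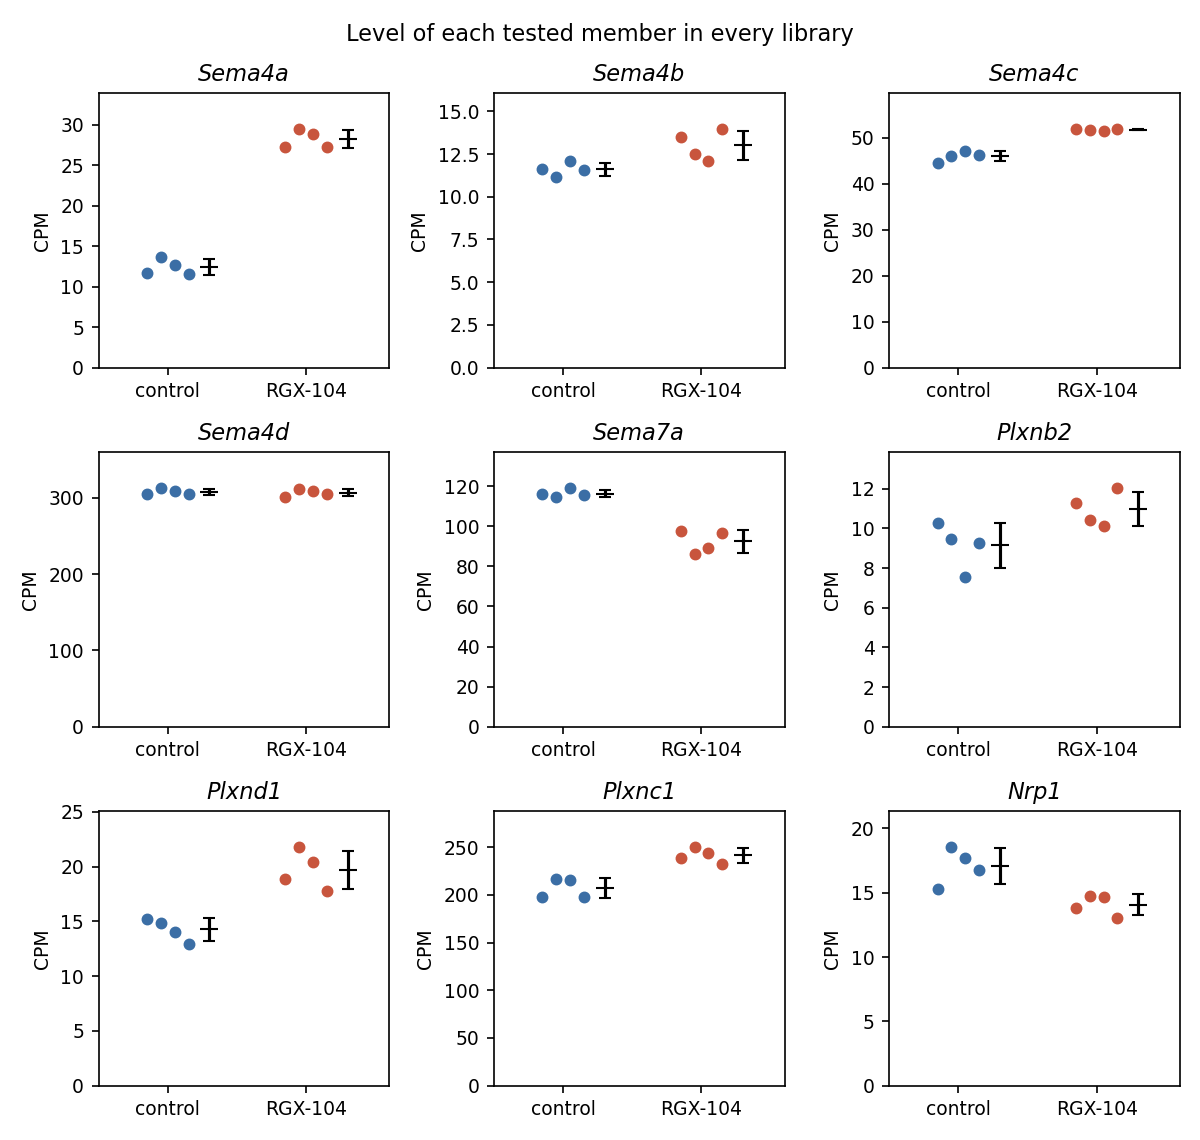
Level in CPM (vertical axis, from 0) of the 9 tested genes in each of 4 control and 4 RGX-104 libraries; points are libraries in the order 1 to 4, and the bar beside them is the mean ± SD. The groups are apart for Sema4a, Sema4c, Sema7a, Plxnd1, Plxnc1 and Nrp1 and overlap for Sema4b, Sema4d and Plxnb2.

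Among the ligands, Sema4a was the gene that moved most. Its protein is known from dendritic cells and activated T cells, where it takes part in T cell priming and helper differentiation, with plexins of the B and D types and Nrp1 among its partners. Sema4a was at 11.7, 13.6, 12.6 and 11.5 CPM in control replicates 1 to 4 and at 27.2, 29.4, 28.8 and 27.3 CPM in RGX-104 replicates 1 to 4. The lowest RGX-104 library was well above the highest control library. Its log2 fold change was 1.19 ± 0.05 (SE), or 2.28-fold, from counts of 409 to 1040 per library. Of all 13290 tested genes only 26 had a larger log2 fold change in either direction. Sema4a overlaps 1 other annotated gene, the microRNA gene Mir7011, which had 0 counts.

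Sema7a moved the other way. Its protein is induced on activated T cells and acts on monocytes through an integrin that holds the Itgb1 subunit, and it also binds plexin-C1. Sema7a was at 116, 115, 119 and 115 CPM in the control libraries and at 97.7, 86.4, 89.0 and 96.7 CPM in the RGX-104 libraries. All 4 RGX-104 libraries were below all controls, and RGX-104 replicates 2 and 3 were lower than replicates 1 and 4. The log2 fold change was -0.33 ± 0.04 (SE), so that the fitted level fell by 20.6%, and the difference of means was -23.9 CPM. Sema7a lies on chromosome 9 from 57939596 to 57962865 and overlaps no other gene.

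Sema4d encodes CD100, the semaphorin that resting T cells already carry and that acts on B cells and dendritic cells through CD72 and on other cells through B-type plexins. It was the most highly counted member and the one that moved least. Sema4d was at 305, 313, 309 and 305 CPM in the controls and at 301, 311, 309 and 305 CPM in RGX-104 libraries. The groups covered nearly the same range. A log2 fold change of -0.01 ± 0.03 (SE) resulted.

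Sema4c and Sema4b were slightly higher with RGX-104. Sema4c, whose protein binds plexin-B2, was at 44.5, 46.0, 47.1 and 46.2 CPM in the controls and at 51.8, 51.6, 51.5 and 51.8 CPM in RGX-104 libraries. The groups did not overlap. The 4 RGX-104 values had an SD of 0.144 CPM and the controls one of 1.10 CPM. Spread was not compared with counting noise, so nothing is read from this difference in SD. Its log2 fold change was 0.17 ± 0.03 (SE). Sema4b was at 11.6, 11.2, 12.1 and 11.6 CPM in the controls and at 13.5, 12.5, 12.1 and 14.0 CPM in RGX-104 libraries. Its groups touched, and the log2 fold change of 0.16 ± 0.06 (SE) was similar to that of Sema4c at a wider error. Sema4f had 0 to 2 counts in every library and did not enter the fit. A second row for a scaffold copy of Sema4f had 0 to 1 counts, and how reads matching both copies were counted is not given in the sources, so its low count is not read as low expression.

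Among the receptors, Plxnd1 had the largest change. Plexin-D1 is known for guiding thymocytes and blood vessels and is a receptor of class 3 semaphorins and of Sema4A. Plxnd1 was at 15.2, 14.9, 14.0 and 12.9 CPM in the controls and at 18.9, 21.8, 20.4 and 17.8 CPM in RGX-104 libraries. The groups did not overlap, and RGX-104 replicates 2 and 3 were the highest. The log2 fold change was 0.47 ± 0.06 (SE), or 1.39-fold.

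Plxnc1, the plexin that binds Sema7A, was the most highly counted receptor. It was at 198, 217, 215 and 198 CPM in the controls and at 238, 250, 244 and 232 CPM in RGX-104 libraries. Every RGX-104 library was above every control. This was a log2 fold change of 0.22 ± 0.03 (SE). The difference of means, 34.2 CPM, was the largest among the 10 genes, with 15.8 CPM for Sema4a.

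Plxnb2, a receptor of Sema4C and Sema4D, was at 10.3, 9.49, 7.53 and 9.27 CPM in the controls and at 11.3, 10.4, 10.2 and 12.03 CPM in RGX-104 libraries. The groups overlapped, with control replicate 3 lowest. The log2 fold change of 0.26 ± 0.08 (SE) had the largest error of the 9 genes. Without control replicate 3 it was 0.18, and the gene then lay outside the threshold used over all genes, as it did without any 1 of control replicates 2 and 4 and RGX-104 replicates 1, 2 and 4.

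Nrp1 encodes neuropilin-1, a co-receptor of class 3 semaphorins and of vascular endothelial growth factor, known on regulatory T cells as a partner of Sema4A. Nrp1 was at 15.3, 18.5, 17.7 and 16.7 CPM in the controls and at 13.9, 14.8, 14.7 and 13 CPM in RGX-104 libraries. All RGX-104 libraries were below all controls, though control replicate 1 was close. The log2 fold change was -0.28 ± 0.06 (SE). Nrp1 was thus the only one of the 4 receptor genes with a lower mean.

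In the edgeR fit over all genes, 7 of the 9 tested members were called at an adjusted p under 0.05. Of these, 5 were higher (Sema4a, Sema4c, Plxnb2, Plxnd1 and Plxnc1) and 2 lower (Sema7a and Nrp1). Over all tested genes 8.95% were called, 4.82% higher and 4.13% lower. The groups did not overlap for 6 of the 9 members and for 14.5% of all tested genes. Since the members were selected on this contrast, nothing is read from these shares. The median log2 fold change was 0.17 over the 9 members and 0.00 over all tested genes. For the same reason nothing is read from this difference.

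**Figure D2:**
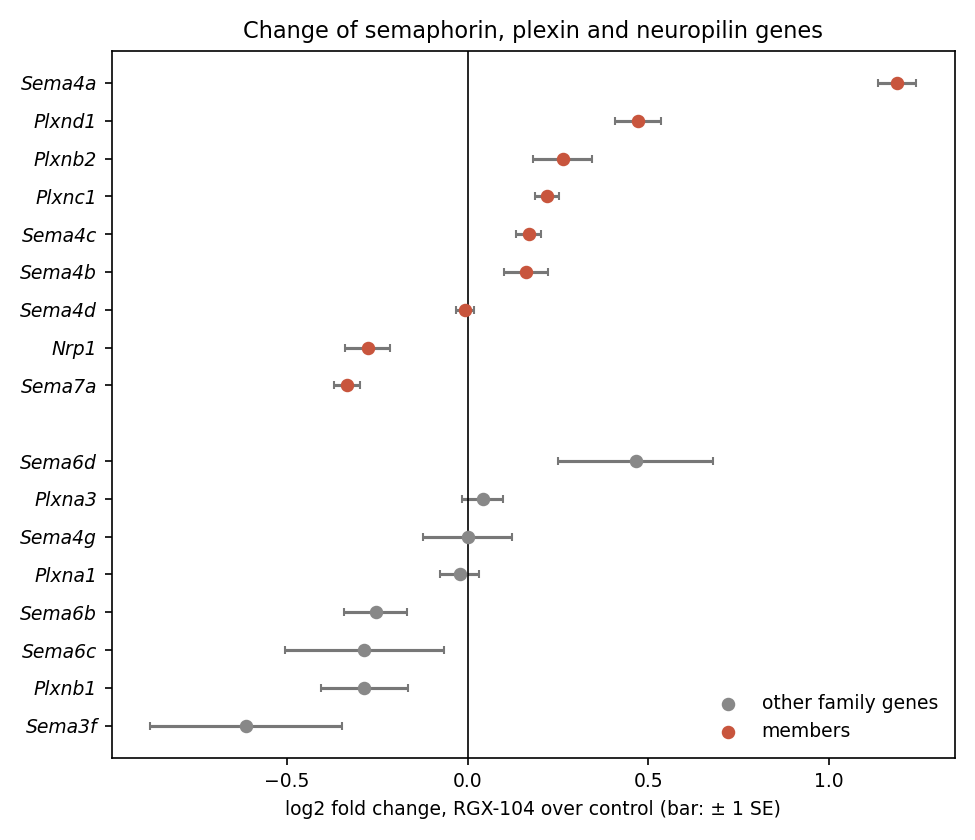
Log2 fold change of RGX-104 over control (horizontal axis) with ± 1 SE for the 9 tested members (upper block) and the 8 tested other genes of the semaphorin, plexin and neuropilin families (lower block). Sema4a, at 1.19, is farthest from 0, and the widest errors belong to low-count genes such as Sema3f and Sema6d.

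Members could also be ranked by library within each group. Among the RGX-104 libraries, replicates 2 and 3 had the highest values of Sema4a, Sema4d, Plxnd1, Plxnc1 and Nrp1 and the lowest of Sema4b, Sema4c, Sema7a and Plxnb2. Those same 2 libraries were the pair closest to each other over all genes. Some of these ranks rest on very small differences, as for Sema4c, with 51.5 to 51.8 CPM in the RGX-104 libraries. The ranks were not set against counting noise gene by gene, so no library pattern is read from them. Control replicates 2 and 3 were also highest for Sema4a, Sema4d, Plxnc1 and Nrp1, but the other members did not repeat the RGX-104 order. Control Plxnd1 was highest in replicates 1 and 2, and control Sema4b and Sema7a were highest in replicate 3 and lowest in replicate 2.

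Levels of different genes were compared per kilobase of the longest annotated transcript. In control libraries Sema4d was highest at 68.7 ± 0.833 CPM per kilobase, followed by Sema7a at 35.3 ± 0.571 and Plxnc1 at 28.3 ± 1.45. Sema4c was at 11.8 ± 0.282 CPM per kilobase. Nrp1 (4.68 ± 0.383) and Sema4a (3.86 ± 0.305) came next, and their libraries overlapped. Sema4b, Plxnd1 and Plxnb2 followed at 2.94 ± 0.0974, 2.06 ± 0.150 and 1.41 ± 0.178 CPM per kilobase, none of which overlapped its neighbour.

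With RGX-104 2 pairs of neighbours changed places. Plxnc1 stood at 33.0 ± 1.03 CPM per kilobase, above Sema7a at 28.04 ± 1.70, and Sema4a stood at 8.79 ± 0.345, above Nrp1 at 3.86 ± 0.226. In neither pair did the RGX-104 libraries of the 2 genes overlap. Sema4b (3.30 ± 0.215) and Plxnd1 (2.85 ± 0.251) overlapped in RGX-104 libraries, which they had not in control. Sema4d was again first at 68.4 ± 1.03 CPM per kilobase and Plxnb2 last at 1.69 ± 0.132. Both exchanges of place rest on the longest transcript. Per kilobase of the median transcript, Plxnc1 was above Sema7a in both groups (302 and 62.7 CPM per kilobase in the controls), and so was Sema4a above Nrp1 (14.7 and 5.28). The median lengths were 686 bases for Plxnc1 and 845 for Sema4a, where the longest transcripts had 7302 and 3205. For Sema7a and Nrp1 they were 1857 and 3229 bases, where the longest had 3297 and 3645. Short annotated transcripts thus set the median lengths of Plxnc1 and Sema4a, and which transcripts these cells hold was not tested.

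**Figure D3:**
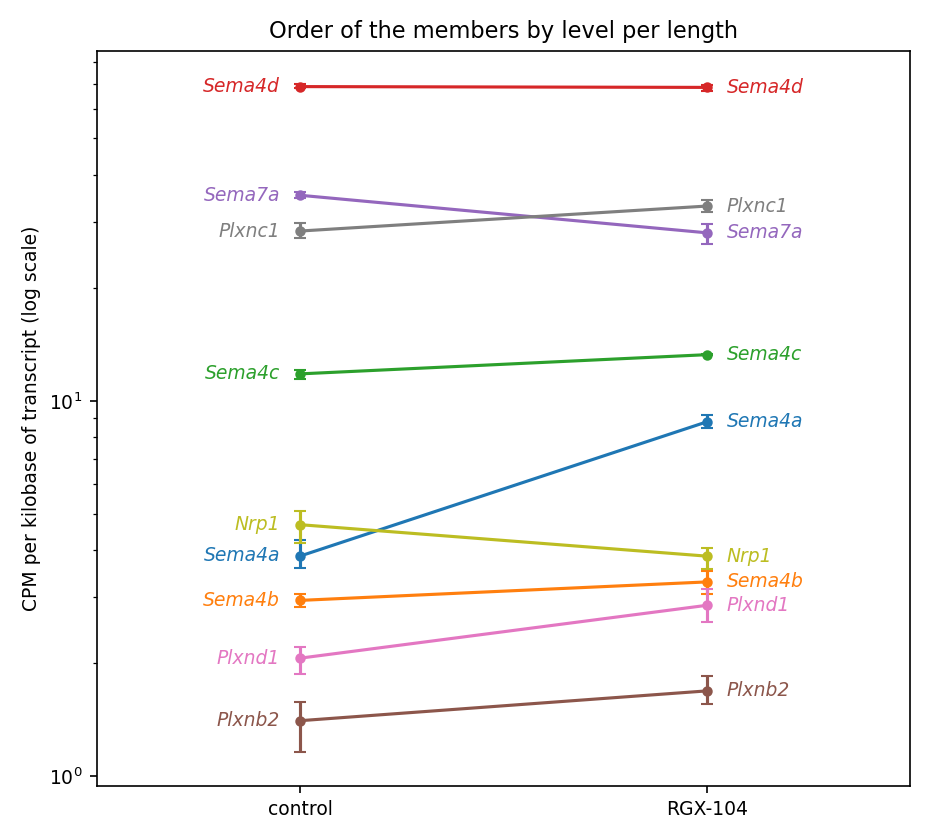
Level in CPM per kilobase of the longest transcript (vertical log axis) of the 9 tested members in control and RGX-104 libraries; points are means of 4 libraries and bars run from the lowest to the highest library. The lines of Sema7a and Plxnc1 cross, as do those of Sema4a and Nrp1, with these lengths but not with median transcript lengths.

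Ratios between 2 members of a library do not depend on how libraries were scaled. Plxnc1 per Sema7a, the receptor over its ligand, was 0.768, 0.854, 0.817 and 0.774 in control libraries and 1.10, 1.31, 1.24 and 1.09 in RGX-104 libraries, per length. All RGX-104 ratios were above all control ratios, and the value of 1 lay between the groups with these lengths. Sema4a per Sema4d was 0.0562 ± 0.00370 in control and 0.129 ± 0.00340 with RGX-104 (SD, n = 4). Sema4a per Plxnd1, 2 genes that were both higher, still went from 1.87 ± 0.145 to 3.09 ± 0.161, and Sema4a per Nrp1 from 0.826 ± 0.0385 to 2.28 ± 0.0719. The size of each ratio rests on the transcript lengths used, whereas its fold difference between the groups does not.

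The summed level of the 6 member semaphorins hardly moved. It was 123 ± 1.45 CPM per kilobase in control and 122 ± 0.767 in RGX-104 libraries, and the groups overlapped. Within it the Sema4a share was 3.15% ± 0.220 in control and 7.22% ± 0.322 with RGX-104, and the Sema7a share was 28.8% ± 0.422 and 23.0% ± 1.28 (SD, n = 4). Sema4d made up 56.0% ± 0.383 and 56.2% ± 1.08. With median transcript lengths the shares were 84.1% and 82.9% for Sema4d and 9.77% and 7.69% for Sema7a. The median Sema4d transcript has 571 bases and the longest 4482, so short annotated transcripts raise its share there. The summed level of the 4 receptor genes was 36.5 ± 1.74 CPM per kilobase in control and 41.4 ± 1.38 with RGX-104, without overlap, and Plxnc1 made up 77.7% and 79.7% of it. With median transcript lengths the Plxnc1 share went the other way, from 87.6% to 86.7%.

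**Figure D4:**
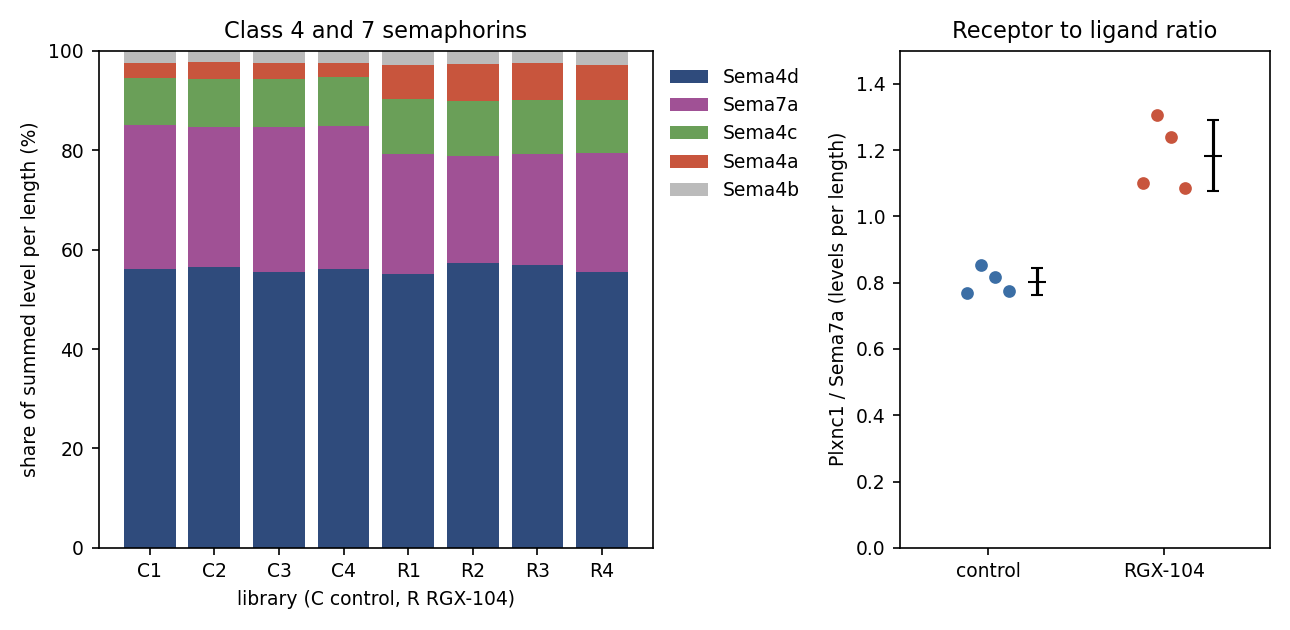
Left, share in % of each member semaphorin in the members' summed level per length, for control libraries C1 to C4 and RGX-104 libraries R1 to R4. Sema4f, with 0 to 2 counts, is not drawn, and the class 4 gene Sema4g is no member and not in the sum. Right, ratio of Plxnc1 to Sema7a per length in each library with mean ± SD; all 4 RGX-104 ratios are above the highest control ratio of 0.854.

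Few other genes of the families were counted at a testable level. Of 21 further semaphorin, plexin and neuropilin genes 8 passed the filter, and 0 were called with edgeR, DESeq2 or limma-voom. Over all tested genes 8.95% were called with edgeR, so 0 of 8 is near that share and nothing is read from it. The 8 genes had a median log2 fold change of -0.14, against 0.00 over all tested genes. Plxna1 and Plxna3, receptors that class 3 and 6 semaphorins use, were the highest of them, at 22.9 ± 1.80 and 22.7 ± 2.14 CPM in the controls and at 22.5 ± 1.247 and 23.3 ± 0.816 CPM with RGX-104. Their log2 fold changes were -0.02 ± 0.05 and 0.04 ± 0.06 (SE).

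Sema6b, a membrane semaphorin that binds A-type plexins, was at 7.57, 6.04, 6.43 and 6.85 CPM in the controls and at 6.02, 5.55, 5.29 and 5.72 CPM in RGX-104 libraries. Its groups just failed to overlap, and it did not pass (log2 fold change -0.25 ± 0.09 SE, edgeR adjusted p = 0.0686). Without control replicate 2 it was called lower. Plxnb1, the classical receptor of Sema4D, was at 3.04 ± 0.394 and 2.49 ± 0.114 CPM (edgeR adjusted p = 0.153), and the remaining class 4 gene Sema4g at 2.97 ± 0.320 and 2.97 ± 0.417 CPM (edgeR adjusted p = 0.997). Sema3f, Sema6c and Sema6d were below 1 CPM in both groups, with log2 fold changes of -0.61 ± 0.27, -0.29 ± 0.22 and 0.46 ± 0.21 (SE), and none passed (edgeR adjusted p = 0.167, 0.478 and 0.195). Of the 13 genes that did not enter the fit, Nrp2 reached 12 counts in a library and the others at most 4. Sema3a, Sema5a and Sema5b had 0 counts throughout.

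A further 10 genes encode other surface partners of these semaphorins or the proteases that release them. Of 6 tested, 1 was called, Itgb1, against 8.95% of all genes. Itgb1, the beta chain shared by many integrins and part of the Sema7A receptor, was at 283, 283, 287 and 301 CPM in the controls and at 257, 257, 255 and 259 CPM in RGX-104 libraries. All 4 RGX-104 libraries were lower (log2 fold change -0.17 ± 0.03 SE, edgeR adjusted p = 1.56e-04). Its usual partner in that receptor, Itga1, had 1 to 3 counts per library. Itgb1 (chromosome 8, 128685654 to 128733579) and Nrp1 (128358591 to 128505476) lie 180177 bases apart on the plus strand. A pseudogene and an snRNA gene, but no protein-coding gene, are annotated between them. Both had lower levels with RGX-104, and whether their position has a part in this was not tested.

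Of the CD100 partners, Cd72 and Ptprc were not called, and the B-type plexins are given above. Cd72, the B cell receptor of Sema4D that was also counted in these T cells, was at 5.76 ± 0.703 and 6.36 ± 0.655 CPM (edgeR adjusted p = 0.393). Ptprc, encoding CD45, with which CD100 associates, was at 1428 ± 32.1 and 1497 ± 16.8 CPM without overlap, but did not pass (edgeR adjusted p = 0.0866). Adam10 and Adam17, membrane proteases that shed many surface proteins, were at 163 and 163 CPM and at 122 and 126 CPM (edgeR adjusted p = 0.993 and 0.333). Mmp14 had group means of 0.758 and 0.864 CPM. Timd2, which encodes a Sema4A receptor of mouse helper T cells, had 1 to 8 counts, and Met and Erbb2 at most 5.

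Downstream of plexins, 39 of 43 listed signalling genes were tested, and 3 passed, all higher. Over all tested genes 8.95% were called, 4.82% higher and 4.13% lower, so 3 of 39 is near the share called. The 39 genes had a median log2 fold change of 0.02. Arhgef11, a guanine nucleotide exchange factor that binds B-type plexins, was at 6.31, 6.57, 6.40 and 6.52 CPM in the controls and at 7.28, 8.71, 8.69 and 8.61 CPM in RGX-104 libraries. The groups were apart (log2 fold change 0.37 ± 0.08 SE, edgeR adjusted p = 0.00260). Mical1, a redox enzyme that takes actin filaments apart after plexin signalling, was at 51.4, 52.4, 53.4 and 52.5 CPM in the controls and at 59.6, 60.1, 61.6 and 59.5 CPM with RGX-104. It rose, with all 4 RGX-104 libraries above every control (log2 fold change 0.20 ± 0.03 SE, edgeR adjusted p = 1.45e-04).

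Rras, a GTPase on which plexins act, was at 10.8, 8.87, 9.38 and 8.84 CPM in the controls and at 11.1, 12.05, 11.8 and 10.2 CPM with RGX-104. Its groups overlapped (log2 fold change 0.25 ± 0.07 SE, edgeR adjusted p = 0.0297), and without 1 of control replicates 2, 3 or 4 or RGX-104 replicates 1, 2 or 3 it no longer passed (edgeR adjusted p = 0.0554 to 0.116). Over the other edgeR alternatives the adjusted p was 0.00459 to 0.0314, and it was 0.0441 with DESeq2 and 0.0408 with limma-voom. Rnd2, a small GTPase of the Rnd type, was at 1.37 ± 0.171 and 1.80 ± 0.226 CPM without overlap and did not pass (edgeR adjusted p = 0.108). Ptk2 went the other way, at 6.36 ± 0.458 and 5.28 ± 0.621 CPM with overlap, and did not pass (edgeR adjusted p = 0.0747). Without control replicate 2 or RGX-104 replicate 2 it was called lower. The abundant genes of the list, Cdc42 (554 and 553 CPM), Rac1 (341 and 335 CPM), Rhoa (319 and 305 CPM) and the actin-severing Cfl1 (1408 and 1394 CPM), did not pass. Signalling genes called were 5 without control replicate 1 (with Rhoa and Rras2 lower) and 2 without control replicate 3 or RGX-104 replicate 1 or 3.

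Sema4a and several plexins are also expressed by dendritic cells, the other cells of the culture. Of 13 dendritic cell markers 9 were tested, and 2 were called, both higher, where 4.82% of all genes were called higher. These were Ccl22 (2.05 ± 0.248 and 4.83 ± 0.324 CPM) and Cd74 (26.5 ± 1.18 and 33.2 ± 0.983 CPM). The 13 markers summed to 120 to 130 CPM in the controls and 132 to 147 CPM in RGX-104 libraries, without overlap, with Cst3, Batf3 and Cd74 holding most of the sum. The largest differences of means were 6.645 CPM for Cd74 and 2.785 CPM for Ccl22. All 9 tested markers had a log2 fold change above 0, as had 50.4% of all tested genes, with a median of 0.28. Zbtb46 and Fscn1 came close to a call (edgeR adjusted p = 0.0552 and 0.0669). Cst3 and Batf3 hardly changed, with log2 fold changes of 0.02 ± 0.04 and 0.04 ± 0.09 (SE). Itgax, Flt3 and Ciita had at most 34 counts and did not pass (edgeR adjusted p = 0.554, 0.665 and 0.761). Of the 4 not tested, Clec9a and Cd209a had at most 1 count, Xcr1 4 to 7 and Sirpa 0 to 7. Of 8 myeloid markers, Lyz2, Csf1r, Spi1, Tyrobp, Fcer1g, Itgam and Adgre1 had at most 13 counts in any library, and Cd68 was at 5.08 and 4.77 CPM. With Cd68 included they summed to 5.17 to 6.59 CPM in the controls and 4.95 to 6.03 CPM in RGX-104 libraries. The part of RNA from dendritic cells in the Sema4a difference was not tested. Of 4 B cell markers only Cd79b was tested, at 4.26 and 4.24 CPM.

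The genes whose pattern was most like that of Sema4a over the 8 libraries were Mpp2, Scd2, Lss, Arl4c and Abca1, in this order, by Pearson's r of log2 CPM among 9903 genes of adequate level. Their r ran from 0.994 to 0.998. The libraries form 2 groups and are shared by all genes, so r mostly restates the difference between groups. Mpp2 was at 10.9, 13.3, 12.5 and 11.5 CPM in the controls and at 24.1, 25.5, 25.8 and 24.6 CPM in RGX-104 libraries, close to Sema4a in level and in change (log2 fold change 1.06 ± 0.06 SE). Arl4c was at 48.3 and 104 CPM (1.11 ± 0.04), Scd2, a fatty acid desaturase gene, at 2919 and 4117 CPM (0.50 ± 0.03), and Lss, an enzyme of sterol synthesis, at 206 and 244 CPM (0.25 ± 0.03).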

How the data were processed

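RNA of sorted OT-I CD8+ T cells was sequenced in 8 libraries, 4 per group. The authors deposited 1 table of whole-number counts per gene without normalization. Build GRCm38 and the tools STAR 2.7.5, cutadapt 2.10, DESeq2 1.4 and R 4.1.0 are named, per the submitters' processing notes. Neither the counting step nor its annotation and strandedness is given in the sources used here, so counts of overlapping genes are uncertain.

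Genes were filtered with filterByExpr (minimum count 10, minimum total 15) and tested in R 4.3.3 by robust quasi-likelihood fits (glmQLFTest, edgeR 4.0.16), with TMM scaling and treatment as the only term. Adjusted p is Benjamini-Hochberg over 13290 genes, with a threshold of 0.05. SE was derived from the F statistic. Lengths came from GENCODE vM21, in place of the RefSeq transcripts first planned, and coordinates and start-site windows from RefSeq GRCm38.p6, whose symbols matched all 10 members.

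The members and gene lists were chosen with earlier results of these data known. Of the other lists all called genes were to be named, and every tested family gene. Genes like Sema4a were the 5 of highest Pearson's r, over log2(CPM + 0.5), with mean log2 CPM of at least 1 and no predicted gene models. Other genes are examples chosen after their values were seen. The script was tested on simulated data. Alternatives were DESeq2 1.42.0, limma-voom (limma 3.58.1), other scalings and filters, median transcript length, leaving out each library and, added after seeing the data, the column number as a block.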

Additional observations from a re-analysis of the deposited data

Results flagged for a closer look

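Among 56 sets of 4 libraries checked for 28 named genes, 3 had a single library apart from the rest, and chance gives about 1 in 20. Sema4f was at 0.0574 CPM in control replicate 1, from 2 counts, and at 0 in the other control libraries. For Plxna3 the apart library was RGX-104 replicate 2, with 22.1 CPM where the others had 23.7 to 23.8. Arhgef11 had 7.28 CPM in RGX-104 replicate 1 where the others had 8.61 to 8.71, and that library too was above every control.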

How the results depend on the processing

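The 9 members' log2 fold changes moved by less than the spread between libraries under all alternatives run, and no called member changed direction. Leaving out 1 of 4 libraries cannot move a group mean by as much as that spread. Other scalings and filters shift all genes nearly alike, so nothing is read from the size of these moves. Plxnb2 lost its call with DESeq2, limma-voom and without any 1 of 6 libraries. The members called were 6 to 7 without 1 library, and all genes called 840 to 1340. Upper-quartile scaling gave 752 genes higher and 438 lower in place of 640 and 549. With it Ptprc joined Itgb1, giving 2 partner genes called, and without 1 library there was 1. Other family genes called were 0 to 1 and signalling genes 2 to 5 without 1 library. With the median in place of the longest transcript length, semaphorin shares in control and RGX-104 libraries were 84.1% and 82.9% for Sema4d, 9.77% and 7.69% for Sema7a and 2.28% and 5.15% for Sema4a. The order of members by level therefore depends on the lengths used. Below 1 CPM the SE of the tested family genes was 0.21 to 0.27 on the log2 scale, about the size of most members' changes. The labels number the samples without overlap, so they pair none, but the table's columns number both groups 1 to 4. Deviations of same-numbered libraries from their group means correlated at 0.0615 to 0.225 over genes, over 0.1 in 3 of 4 pairs, and 7 of 8 libraries correlated best with their own number, a hint from the data and not from the design. With the column number as a replicate block, an alternative chosen after seeing the data, edgeR called 2015 genes in place of 1189, the same 7 members, 1 other family gene (Sema6b, lower), 2 partner genes (Itgb1 and Ptprc) and 9 signalling genes (7 higher and 2 lower).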
